A study of Arabidopsis thaliana with 16 samples.

Results

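In Arabidopsis thaliana seedlings, 44 nuclear genes had root transcript levels that were at least 4-fold lower at 32 °C than at 22 °C and that lay within 1.5-fold of the 22 °C level when only the shoot was kept at 32 °C and the root grew into a cooler zone. They include the tonoplast aquaporins TIP2;2 and TIP2;3, the Casparian strip membrane protein CASP4, the ferric reductases FRO4 and FRO5, arabinogalactan proteins and 4 genes with pectin in their annotation. When each 32 °C or gradient root library was left out in turn, 15 of the 44 were kept every time. Of the genes named here, TIP2;3 alone was among those 15. Members were chosen from the means of normalised counts in the root, each with 1 added, among genes with a 22 °C mean of at least 100. Of 32833 loci in the table, 16809 nuclear genes had such a 22 °C mean, and 313 of them (1.86%) were at least 4-fold lower at 32 °C. Of these 313 genes, 44 (14.1%) lay within the 1.5-fold band in the gradient, 265 lay below it and 4 above it. Because all 3 root groups entered the choice, the members' root values are a description with no test.

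The plants were wild-type seedlings, 10 days old when harvested, and no transgene or mutant is named in the labels. All of them grew on MS1/2 medium at 22 °C for 4 days, and then spent 6 days with the whole plant at 22 °C, with the whole plant at 32 °C, or with a 32 °C shoot above a root zone that became cooler with depth. Polyadenylated RNA from whole roots and from shoots was sequenced. The labels give neither the temperatures reached along the gradient nor whether replicates came from separate cultures, so p-values here rest on the variation among these libraries alone, and that may be technical.

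The deposited values are whole-number normalised counts, with column totals of 33075029 to 34769425, and read numbers are not known. Both 22 °C root columns held identical values at all 32833 loci, as did gradient shoot columns 2 and 3, so each pair was counted as 1 library. The 22 °C, 32 °C and gradient groups then held 1, 3 and 3 root libraries and 2, 3 and 2 shoot libraries. The 22 °C root level therefore has no error of its own, although every member was chosen by its ratio to it. Of 9 root markers examined, 7 were higher in every root than in every shoot library, the exceptions being SCR and NRT2.1. The sum of 10 markers of green tissue was 0.129% to 0.632% of its shoot level in the roots.

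Roots take up water and ions through epidermis, cortex and endodermis. Tonoplast intrinsic proteins are water channels of the vacuolar membrane, and CASP proteins form the membrane scaffold on which the Casparian strip, a lignified seal around endodermal cells, is laid down. Enzymes of the FRO family reduce iron or copper ions at membranes before uptake, and pectin-modifying enzymes and arabinogalactan proteins act in the cell wall. In bulk tissue, fewer cells of a type and less RNA per cell cannot be told apart.

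Across the 44 members, the 32 °C mean was between 0.0181 and 0.243 of the 22 °C value, with a median of 0.198, and the gradient mean was between 0.669 and 1.43 of it, with a median of 0.838. For all 16809 genes over the same floor, the corresponding medians were 1.16 and 1.04. Between the warm regimes, the members' gradient mean was 2.93 to 41.6 times the 32 °C mean, with a median of 4.44. Gradient means were below the 22 °C level for 34 members and above it for 10. For every member, each 32 °C library was below the 22 °C library and each gradient library was above all 32 °C libraries. Such a separation of gradient over 32 °C libraries was found for 16.4% of the 21877 root genes that reached 10 in 2 or more root columns, and since the rule used this contrast nothing is read from the members' count.

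**Figure D1:**
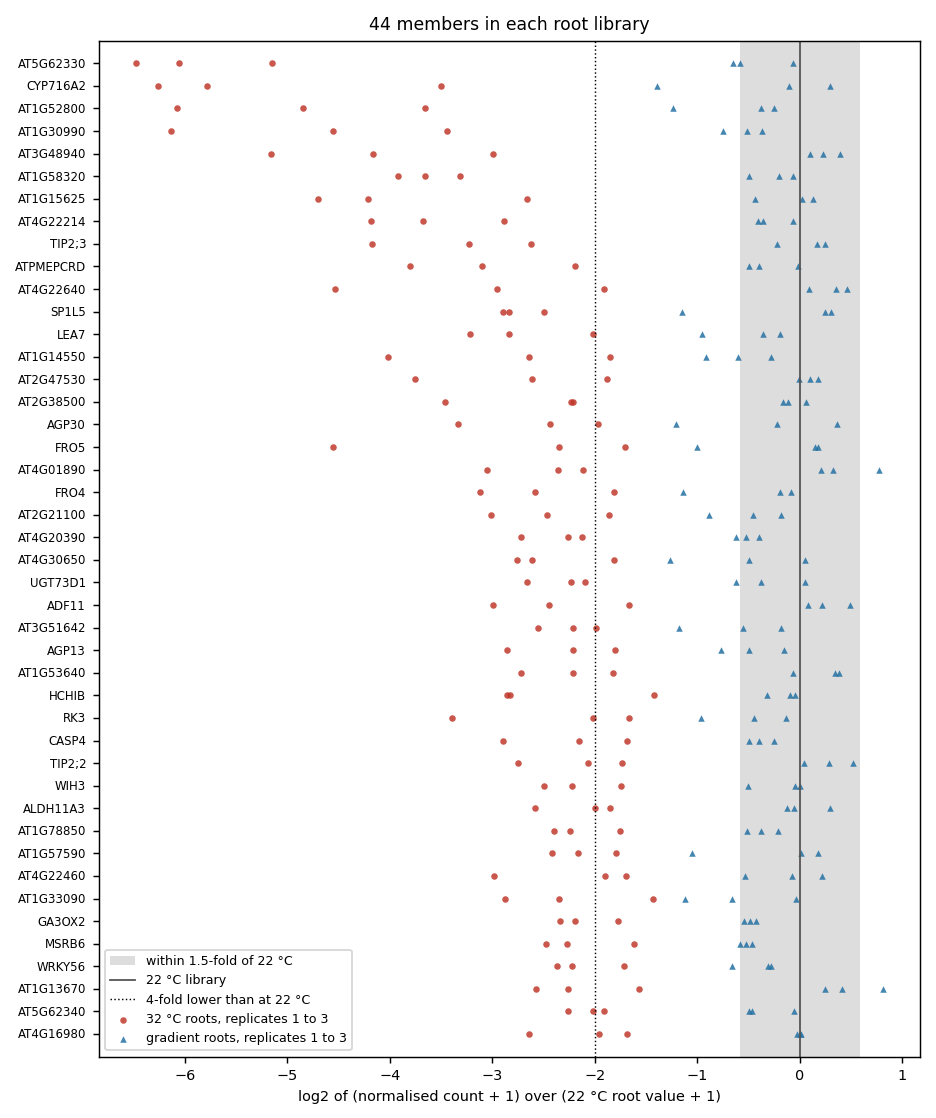
Each row is a member, and the horizontal axis gives the log2 ratio of its normalised count plus 1 in a library to that in the 22 °C root library. Circles are the 32 °C libraries, triangles the gradient libraries, the grey band spans 1.5-fold either side of the 22 °C level, and the dotted line marks a 4-fold lower level. For all 44 members the circles lie to the left of the triangles, and 22 members have every triangle inside the band.

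The libraries of a regime did not place the members equally. In 32 °C replicates 1 and 2, 41 and 42 members were at least 4-fold below the 22 °C value, against 19 in replicate 3. Replicate 3 held the highest 32 °C value of 37 members, while among all 313 genes that were at least 4-fold lower it held the highest value of 162. The members' median ratios to 22 °C in the 3 libraries at 32 °C were 0.173, 0.138 and 0.266. In the gradient they were 0.764, 0.921 and 0.895, with 31, 40 and 37 members inside the band in replicates 1, 2 and 3. Gradient replicate 1 held the lowest gradient value of 26 members and of 186 of the 313 genes, a similar share. Without 32 °C replicate 3, 72 genes met the rule, 42 of them among the 44, and after TMM scaling of the root libraries 71 genes met it, 36 of them among the 44. The 22 °C value lay inside the range of the gradient libraries for 16 members, above all of them for 22 and below all of them for 6.

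The choice was repeated without 1 replicate of both warm groups, and the replicate left out was then read. Without replicate 1, 43 genes met the rule, of which 33 were among the 44, and in replicate 1 itself 40 of the 43 (93.0%) were at least 2-fold higher in the gradient than at 32 °C. Without replicate 2, 34 genes met it (28 shared), and 33 of them (97.1%) were at least 2-fold higher in that replicate. Without replicate 3, 70 genes met it (34 shared), and 54 of them (77.1%) were at least 2-fold higher in replicate 3. Over all genes above the floor, the corresponding shares were 5.05%, 6.26% and 3.81%. The median ratio of gradient to 32 °C in the replicate left out was 3.82, 8.12 and 2.70. The 22 °C library entered each choice, but this ratio does not contain it. The choice itself required a high ratio in the other replicates, and whether replicates were separate cultures is not known. These shares therefore describe how alike the libraries were, with no test.

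**Figure D2:**
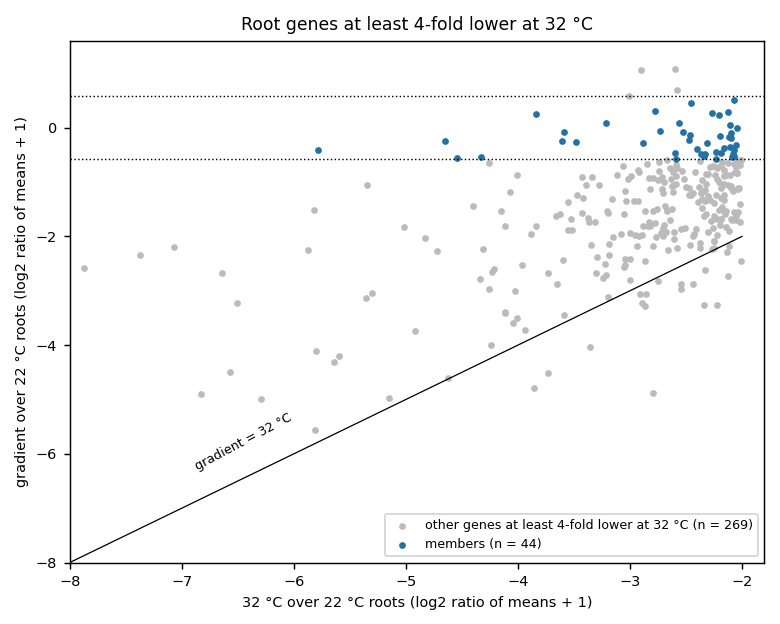
Each point is one of the 313 root genes at least 4-fold lower at 32 °C, placed by the log2 ratio of its 32 °C mean (horizontal axis) and of its gradient mean (vertical axis) to the 22 °C value, with 1 added to each. The 44 members, in blue, lie between the dotted lines that mark 1.5-fold either side of the 22 °C value, and most other genes, in grey, lie below them. On the solid line both warm regimes would be equal, and the median gradient ratio of all 313 was 0.356.

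Membership is a matter of degree at each edge of the rule. AT4G16980 (0.243 of the 22 °C value at 32 °C) was just inside, and AT3G61390 (0.251) and the annexin gene ANNAT7 (0.254) just outside. At the lower edge of the band, AT3G51642 (0.669) and the peroxidase gene AT1G14550 (0.671) were inside. The transcription factor gene WRKY43 (0.660) and AT5G44550 (0.662), which carries the UPF0497 annotation of the CASP4 family, lay just below it. AT1G13670 (1.43) was the member nearest the upper edge, and AT4G37950 (1.51) the nearest gene above it. At the floor, the receptor kinase gene RK3 had a 22 °C value of 104, and the glutathione transferase gene ERD9 missed it at 99.

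The 250 bases before each annotated start were read from the RefSeq TAIR10.1 genome and searched on both strands for 10 short motifs. The heat shock element core GAANNTTC, a palindrome bound by heat shock factors, was present before 10 of the 44 members (22.7%), against 9.14% of genes over the floor, 13.8% of the other genes at least 4-fold lower at 32 °C and 9.69% of all 32545 windows. Besides AT1G13670, LEA7, ALDH11A3, UGT73D1 and CYP716A2, these were the 5 with the highest 22 °C root values of the 10. Windows of those 5 are printed because this motif had the largest share among members relative to genes over the floor. They show the core in capitals, with 16 bases on either side, written 5′ to 3′ on the gene's strand.
TIP2;3: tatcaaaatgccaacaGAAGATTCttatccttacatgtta
HCHIB: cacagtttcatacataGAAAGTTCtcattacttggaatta
AGP30: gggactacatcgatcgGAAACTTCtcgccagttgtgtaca
FRO5: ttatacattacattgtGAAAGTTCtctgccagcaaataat
WIH3: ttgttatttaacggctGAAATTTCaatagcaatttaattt
The first base of the core lay 82 bases before the start of TIP2;3, 228 before HCHIB, 39 before AGP30, 172 before FRO5 and 76 before WIH3. WIH3 lies on the plus strand and the other 4 on the minus strand. The abscisic acid response element core ACGTG was found before 29.5% of members and 23.7% of genes over the floor, and the W-box core TTGAC, bound by WRKY factors, before 36.4% and 45.3%. The dehydration-responsive element core CCGAC stood before 6.82% and 13.3%. The other shares of members and of genes over the floor were 4.55% and 7.39% for the G-box CACGTG, 4.55% and 2.45% for the evening element AAAATATCT, and 4.55% and 3.42% for the telo-box AAACCCTA. They were 9.09% and 5.50% for the P1BS motif GNATATNC, 6.82% and 8.79% for ACCAAAC, an element of lignin genes, and 56.8% and 46.3% for TATAAA, the core of the TATA box. ACGTG is also part of the G-box, and some forms of the heat shock element core also match the P1BS motif. A match is a stretch of letters, not a shown binding site.

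TIP2;2, a vacuolar aquaporin, read 33179 at 22 °C, 7905, 4946 and 9965 at 32 °C, and 34275, 47466 and 40515 in the gradient. Its 32 °C mean of 7605 ± 2523 (SD, n = 3) was 4.36-fold below the 22 °C value, and its gradient mean of 40752 ± 6599 (SD, n = 3) was 123% of that value. All 3 gradient libraries were above the 22 °C library. TIP2;3, its close relative and one of the genes with the printed heat shock element core, read 15394 at 22 °C, 1641, 853 and 2496 at 32 °C, and 13185, 18227 and 17330 in the gradient. It was 9.25-fold lower at 32 °C, and the 22 °C value lay inside the gradient range. Of 21 aquaporin genes listed, all over the floor, 12 were at least 2-fold lower at 32 °C and 3 at least 4-fold lower. Over all 16809 genes above the floor, 7.54% were at least 2-fold and 1.86% at least 4-fold lower. The list had a median ratio to 22 °C of 0.46 at 32 °C and 1.06 in the gradient. The third was PIP2;6, a plasma membrane aquaporin, which lay below the band with a mean of 48.9% of the 22 °C value in the gradient.

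CASP4, a component of the Casparian strip membrane domain, read 1983 at 22 °C, 445, 266 and 615 at 32 °C, and 1404, 1503 and 1662 in the gradient. All gradient libraries were between the 32 °C libraries and the 22 °C library, and the gradient mean was 76.8% of the 22 °C value. Of its relatives, CASP1, CASP2 and CASP5 missed the 4-fold limit. CASP1 stood at 26.7% of the 22 °C value at 32 °C and 73.4% in the gradient, CASP2 at 26.9% and 81.5%, and CASP5 at 65.6% and 172%. MYB36, the transcription factor that drives CASP expression, was at 93.3% and 134%. AT4G20390, an uncharacterised gene with the same UPF0497 family annotation as CASP4, read 8987 at 22 °C, 1878, 1368 and 2067 at 32 °C, and 5828, 6260 and 6804 in the gradient. Its 32 °C and gradient libraries were apart, and all of them were below the 22 °C library.

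Suberin, the lipid polyester that is deposited on endodermal cells after the Casparian strip, gave no member. With members at 0.262% of all genes over the floor, a list of this size would hold few or none. Of 20 suberin genes over the floor, 12 were at least 2-fold lower at 32 °C and 5 at least 4-fold lower, and all 5 stayed below the band in the gradient. The shares over all genes above the floor were the 7.54% and 1.86% given for the aquaporins. The fatty acid hydroxylase CYP86A1 stood at 22.0% of the 22 °C value at 32 °C and 61.4% in the gradient. The suberin regulator MYB41 stood at 10.9% and 34.5%. The list medians were 0.43 and 0.73 of the 22 °C value, against 0.60 and 1.15 for the 10 Casparian strip genes over the floor.

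Among wall proteins, AGP30, a root arabinogalactan protein, read 6637 at 22 °C, 1224, 655 and 1697 at 32 °C, and 2865, 5675 and 8524 in the gradient. Its gradient libraries differed 2.98-fold among themselves, and the lowest of them was still above the highest 32 °C library. AGP13, an arabinogalactan peptide, read 3010 at 22 °C, 648, 416 and 860 at 32 °C, and 1765, 2140 and 2703 in the gradient, with a narrower range and all gradient libraries below the 22 °C value. AT4G16980, annotated to the arabinogalactan protein family, had the narrowest gradient spread, with 286 at 22 °C, 73, 45 and 88 at 32 °C, and 286, 289 and 281 in the gradient. In all, 4 members carried pectin in their annotation, which was 9.09% of the 44 against 0.529% of the genes over the floor. They were AT5G62340 and ATPMEPCRD, both annotated to the plant invertase/pectin methylesterase inhibitor superfamily, the pectin acetylesterase gene AT1G57590 and the pectin lyase-like gene AT4G01890.

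AT5G62340 read 4012 at 22 °C, 989, 836 and 1067 at 32 °C, and 2903, 2845 and 3850 in the gradient. ATPMEPCRD read 1244 at 22 °C, 144, 88 and 272 at 32 °C, and 943, 1226 and 882 in the gradient. Both had gradient libraries below the 22 °C value and above every 32 °C library. AT1G57590, whose product removes acetyl groups from pectin, read 410 at 22 °C, 118, 76 and 91 at 32 °C, and 197, 415 and 464 in the gradient, with gradient libraries that differed 2.36-fold, replicate 1 being the lowest. AT4G01890 read 107 at 22 °C, 12, 20 and 24 at 32 °C, and 184, 134 and 124 in the gradient and exceeded the 22 °C value in every gradient library. The dirigent-like gene AT2G21100, of a family that guides the coupling of lignin and lignan precursors, was 5.16-fold lower at 32 °C and at 71.8% of the 22 °C value in the gradient. AT2G47530, annotated to the Ole e 1 allergen and extensin family, was 5.90-fold lower and at 107%.

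The ferric reductase genes FRO4 and FRO5, whose products are known to reduce copper at the root surface, are neighbours in locus order and closely similar copies, so how reads were divided between them is uncertain. FRO4 read 1711 at 22 °C, 284, 196 and 487 at 32 °C, and 1616, 1502 and 777 in the gradient. FRO5 read 1836 at 22 °C, 359, 77 and 561 at 32 °C, and 2077, 2034 and 915 in the gradient. In both genes gradient replicate 3 was the lowest of its group and 32 °C replicate 2 the lowest of its group, and gradient and 32 °C libraries did not overlap. The gradient means were 75.9% and 91.3% of the 22 °C value. No gene of the list of 28 mineral ion transporters was a member, where members were 0.262% of all genes over the floor. Of 20 of them over the floor, 5 were at least 2-fold lower at 32 °C and 1 at least 4-fold lower, against 7.54% and 1.86% of all genes above the floor. The MATE efflux family gene AT1G33090, of a family of membrane transporters, was 4.26-fold lower at 32 °C and at 68.9% in the gradient, again with replicate 3 lowest there.

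AT5G62330, an uncharacterised gene next to AT5G62340 in locus order, had the largest fold difference of the 44. It read 533 at 22 °C, 7, 5 and 14 at 32 °C, and 340, 355 and 509 in the gradient, a 32 °C mean 55.2-fold below the 22 °C value. All gradient libraries were below the 22 °C library. CYP716A2, a cytochrome P450 of a family that oxidises triterpenes, read 384 at 22 °C, 6, 4 and 33 at 32 °C, and 472, 356 and 146 in the gradient. It was 25.1-fold lower at 32 °C, and its gradient libraries differed 3.23-fold, the widest spread of any member, with replicate 3 below the 1.5-fold band. AT1G52800, annotated as a 2-oxoglutarate and Fe(II)-dependent oxygenase, read 201 at 22 °C, 2, 6 and 15 at 32 °C, and 85, 154 and 169 in the gradient. Every gradient library was below the 22 °C value. AT1G30990, annotated to the polyketide cyclase and lipid transport superfamily, was 20.1-fold lower at 32 °C, and the remorin gene AT3G48940, of a family of plasma membrane microdomain proteins, was 14.3-fold lower. The other members at least 10-fold lower at 32 °C, 8 in all, were the PLAC8 family gene AT1G58320 (12.2-fold), AT1G15625 (12-fold), annotated as an E3 ubiquitin ligase, and the defensin-like gene AT4G22214 (11.2-fold). As for all 44 members, no 32 °C library of these 8 reached the lowest gradient library. The rule used this contrast, so nothing is read from it.

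**Figure D3:**
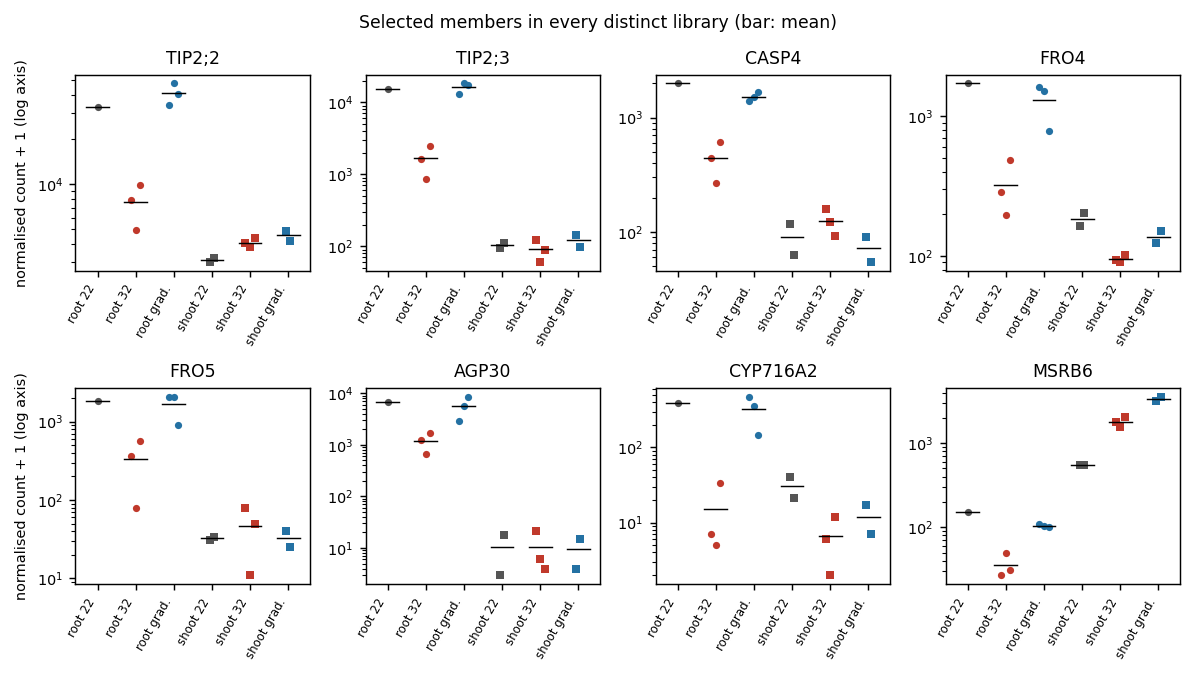
Normalised counts of selected members are drawn for each root library and each shoot library, on a log axis with 1 added, with 1 point per library and a bar at each group mean. In every panel the 32 °C root points lie below the 22 °C root point and below all gradient root points.

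Among genes of defence and carbohydrate binding, the D-mannose binding lectin gene AT1G78850 read 50304 at 22 °C, 9557, 10610 and 14938 at 32 °C, and 38680, 43539 and 35215 in the gradient. Its gradient libraries were all below the 22 °C library and all above the 32 °C libraries. HCHIB, a basic chitinase that cleaves chitin, read 10885 at 22 °C, 1533, 1505 and 4064 at 32 °C, and 8735, 10519 and 10229 in the gradient, and its 32 °C libraries differed 2.70-fold, replicate 3 being the highest. The peroxidase gene AT1G14550, the receptor kinase gene RK3 and the transcription factor gene WRKY56 were 6-fold, 4.57-fold and 4.21-fold lower at 32 °C. They stood at 67.1%, 72.1% and 75.4% of the 22 °C value in the gradient. WIH3, a small cysteine-rich membrane protein gene, was 4.35-fold lower and at 89.3%.

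GA3OX2, which catalyses the last step to bioactive gibberellin, read 338 at 22 °C, 73, 98 and 66 at 32 °C, and 242, 251 and 231 in the gradient. Its gradient libraries lay within 1.09-fold of each other. UGT73D1, a glycosyltransferase that attaches sugars to small molecules, was 4.97-fold lower at 32 °C and at 81.9% in the gradient. The second 2-oxoglutarate-dependent oxygenase gene, AT2G38500, was 5.78-fold lower and at 95.2%. In both of these, 1 gradient library was above the 22 °C value and the others were below it. ADF11, an actin depolymerising factor, read 627 at 22 °C, 114, 78 and 197 at 32 °C, and 665, 728 and 879 in the gradient, with all gradient libraries above 22 °C. SP1L5, related to the microtubule protein SPIRAL1, was 6.65-fold lower at 32 °C and had a gradient range of 73 to 202. Replicate 1 was its lowest, and the other gradient replicates were above the 22 °C value. The lipid-transfer protein family genes AT4G22460 and AT4G22640 were 4.27-fold and 6.84-fold lower and stood at 93.6% and 124% in the gradient. All gradient libraries of AT4G22640 were above the 22 °C library.

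LEA7, a late embryogenesis abundant protein gene, and AT4G30650, annotated as responsive to low temperature and salt, were 6.07-fold and 5.03-fold lower. They stood at 72.4% and 71.9% in the gradient. The lowest gradient library was replicate 2 for LEA7 and replicate 1 for AT4G30650, and neither reached down to the 32 °C libraries. The uncharacterised genes AT1G13670, AT1G53640 and AT3G51642 were 4.20-fold, 4.62-fold and 4.70-fold lower and stood at 143%, 118% and 66.9%.

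MSRB6, a methionine sulfoxide reductase that repairs oxidised protein, read 149 at 22 °C, 26, 48 and 30 at 32 °C, and 108, 103 and 99 in the gradient. ALDH11A3, an aldehyde dehydrogenase family gene, read 107 at 22 °C, 17, 26 and 29 at 32 °C, and 98, 103 and 132 in the gradient. In both genes the gradient and 32 °C root libraries were apart, although both genes were higher in shoots than in roots. Multiplying the shoot mean of the same regime by the green-marker share of each root library gave 40.2 for ALDH11A3 at 22 °C, between 39.6 and 91.0 at 32 °C and between 27.8 and 136 in the gradient. The amounts for ALDH11A3 were above its measured values in all 32 °C libraries and in gradient replicate 3. For MSRB6 the amount was at most 21.3 and for ATPMEPCRD at most 12.7, and for AT4G16980 it was 17.7 to 40.6 at 32 °C, against measured values of 45 to 88. The part of green-tissue RNA in these root values was not tested.

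The remaining lists held no member apart from TIP2;3, which is also on the list of root markers. Members were 0.262% of all genes over the floor, so lists of this size would hold few or none. At least 4-fold lower at 32 °C were 3 of 8 cold-regulated genes over the floor and 3 of 8 genes of senescence and sugar starvation, and all 6 stayed below the band. The abscisic acid response list had 2 such genes of 14, both below the band. The green tissue list had 1 of 8, LHCB2.1, also below the band. None of 12 root hair, 11 xylem, 13 phenylpropanoid and 7 triterpene genes over the floor was at least 4-fold lower at 32 °C. Over all genes above the floor 1.86% were, so lists this short would hold few or none. The median ratio of the root hair genes in the gradient was 3.03. The 4 heat shock genes over the floor had a median ratio of 16.4 at 32 °C and 5.43 in the gradient. No member was annotated as MYB, NAC or bHLH transcription factor. These words were carried by 0.577%, 0.280% and 0.440% of genes over the floor, so a set of this size would hold few or none. The word kinase was carried by 1 member (2.27%), against 5.83% of genes over the floor.

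Most members were higher in the root than in the shoot. At 22 °C their median root level was 32.8 times the shoot level, and 31 of the 44 (70.5%) were at least 10-fold higher in the root. For all genes over the floor these values were 1.45 and 8.71%, and for the other 269 genes that were at least 4-fold lower at 32 °C they were 7.43 and 45.0%. AGP30 was 632-fold and TIP2;3 150.2-fold higher in the root. The 4 members lower in the root than in the shoot were ALDH11A3, AT4G16980, MSRB6 and ATPMEPCRD. These are descriptions, since the floor of 100 was itself set on the root level.

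**Figure D4:**
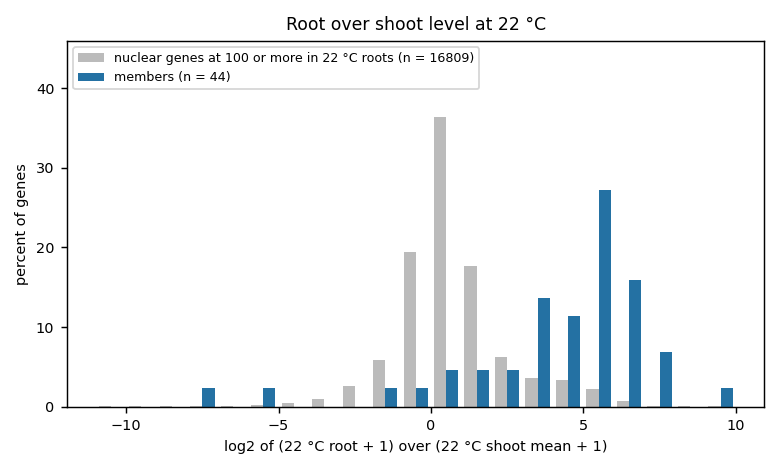
Bars give the percent of genes, by the log2 ratio of the 22 °C root value to the mean of the 22 °C shoot libraries, with 1 added to each, for the 44 members and for all 16809 genes over the floor. The members' bars lie mostly above a ratio of 10, where 70.5% of members and 8.71% of the other distribution stand.

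The shoot values were not used in choosing members and were tested with limma over the 21877 genes that reached 10 in 2 or more shoot columns. Of the 44 members, 37 passed this filter, and AT5G62330, AT3G48940, AT1G33090, AT1G14550, AT1G30990, AT4G22640 and AT4G01890 did not. In 32 °C against 22 °C shoots, 12 of 37 members rose (32.4%, against 55.5% of all genes tested) and 5 fell (13.5%, against 13%). In gradient against 22 °C shoots, 11 rose (29.7%, against 52.6%) and 3 fell (8.11%, against 11.2%). The median log2 difference of the members was 0.38 and 0.22, and that of all genes tested was 0.49 in both. Scaling with TMM factors moved the all-gene medians to 0.04 and 0.03. The calls over all genes then split into 7079 higher and 6650 lower, in place of 12141 and 2852, and for the gradient into 6257 and 6031, in place of 11510 and 2446. After that scaling 5 members rose and 7 fell at 32 °C (background 32.4% and 30.4%), and 3 rose and 6 fell in the gradient (background 28.6% and 27.6%). The calls of MSRB6, AT4G20390, AT2G47530, AT1G57590, AT1G13670 and FRO4 at 32 °C, 6 of 17, and of MSRB6, AT4G20390, AT1G13670 and AT4G22460 in the gradient, 4 of 14, held both after TMM scaling and without each shoot library in turn. Of these, AT1G57590, AT2G47530 and AT4G22460 could meet the filter only through the groups where they were high, so no support is drawn from their calls. The number that fell at 32 °C was 2 without 22 °C shoot replicate 1 and 3 without 32 °C replicate 1. The number that rose in the gradient was 7 and 6 without 22 °C shoot replicates 1 and 2, and 3 and 7 without gradient shoot replicates 1 and 2.

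MSRB6 rose in both warm regimes, with shoot values of 543 and 543 at 22 °C, 1774, 1560 and 2029 at 32 °C, and 3168 and 3570 in the gradient. On the log2(value + 1) scale, the difference was 1.71 ± 0.12 (SE) at 32 °C, with a limma adjusted p of 1.18e-05, and 2.63 ± 0.13 in the gradient, with an adjusted p of 5.15e-06. The shoot groups did not overlap, and the root libraries of the same gene were lower in both warm regimes. AT4G20390 read 202 and 186 at 22 °C, 561, 387 and 490 at 32 °C, and 519 and 419 in the gradient, and rose by 1.29 ± 0.17 at 32 °C (limma adjusted p 0.000359) and by 1.26 ± 0.19 in the gradient (adjusted p 0.000791). AT1G57590 had the largest rise at 32 °C, 2.82 ± 0.35 (adjusted p 0.000215 by limma), with values of 3 and 4 at 22 °C, 24, 37 and 32 at 32 °C, and 12 and 9 in the gradient. These are low values, so their fold change is understated by the added 1. AT1G57590, AT2G47530 and AT1G15625 were under 10 in both 22 °C shoot libraries, so they entered the test through warm libraries alone. The TIP2;2 shoot libraries read 3034 and 3220 at 22 °C, 4046, 3799 and 4361 at 32 °C, and 4911 and 4198 in the gradient. The difference of 0.38 ± 0.09 at 32 °C passed the limma test (adjusted p 0.00727) but was below the all-gene median shift, and it was -0.080 after TMM scaling.

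Other members that rose at 32 °C were AT1G15625, AT2G47530, AT1G52800, RK3, AT2G21100, ATPMEPCRD and ADF11, by 0.84 to 2.14, and ALDH11A3, by 0.22, which was -0.23 after TMM scaling. AT1G15625 and AT2G47530 alone of these 8 passed after that scaling. In the gradient, LEA7 rose by 2.66 ± 0.75 (limma adjusted p 0.0151), with shoot values of 34 and 7 at 22 °C, 29, 81 and 45 at 32 °C, and 155 and 71 in the gradient. The other members that rose there were AT1G15625, AT1G57590, AT1G52800, RK3, AT2G47530, AT2G21100, TIP2;2 and AT4G16980, by 0.42 to 1.75. None of these 8 passed after TMM scaling, and AT4G16980 was then at -0.037. The LEA7 call was lost without 22 °C shoot replicate 2 or gradient shoot replicate 1.

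Of all genes tested, 55.5% rose and 13% fell in the 32 °C shoots and 52.6% rose and 11.2% fell in the gradient shoots, against 32.4% and 30.4%, and 28.6% and 27.6%, after TMM scaling. Of the 21 aquaporin genes, 8 rose and 9 fell in the 32 °C shoots by limma, and 7 rose and 7 fell in the gradient shoots. After TMM scaling 4 rose and 11 fell at 32 °C, and 1 rose and 12 fell in the gradient. Of 11 Casparian strip genes, 6 rose and 1 fell at 32 °C and 4 rose and 1 fell in the gradient, against 3 and 1, and 1 and 3, after TMM scaling. Of 20 suberin genes, 14 rose at 32 °C and 10 in the gradient, against 7 and 6 after TMM scaling, when 1 fell in the gradient. The balance of calls for aquaporin and Casparian strip genes thus moved with the scaling.

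The members that fell in the 32 °C shoots were CYP716A2, AT1G53640, AT1G13670, AT4G22460 and FRO4. FRO4 read 162 and 202 at 22 °C, 93, 90 and 100 at 32 °C, and 122 and 150 in the gradient in shoots. Its difference at 32 °C was -0.93 ± 0.17 (limma adjusted p 0.00183), and in the gradient -0.42 ± 0.19 (adjusted p 0.0865), which did not pass, although after TMM scaling it was -0.87 (adjusted p 0.00632). AT1G13670 read 338 and 347 at 22 °C, 118, 114 and 124 at 32 °C, and 147 and 129 in the gradient and fell in both regimes, by 1.52 ± 0.13 and 1.31 ± 0.15 on the log2 scale (limma adjusted p 3.90e-05 and 0.000174). AT4G22460 had a difference of -2.51 ± 0.51 (adjusted p 0.0034) in the gradient, and AT1G58320 of -1.51 ± 0.47 (adjusted p 0.0232). Of these differences, those of CYP716A2, AT1G53640, AT4G22460 at 32 °C and AT1G58320 did not pass without 22 °C shoot replicate 1. That of AT1G53640 was also lost without 22 °C replicate 2 or 32 °C replicate 1 or 3. That of AT4G22460 at 32 °C was also lost without 22 °C replicate 2 or 32 °C replicate 1 or 2. That of AT1G58320 was also lost without 22 °C replicate 2 or gradient replicate 1. AT1G58320 reached 10 in the 22 °C shoots alone, and AT4G22460 there and in 32 °C replicate 3. Both therefore entered the test only because of the 22 °C group, where they were high. CASP4 and TIP2;3 passed in neither regime against 22 °C. Their differences at 32 °C were 0.50 ± 0.36 and -0.23 ± 0.31, with limma adjusted p of 0.244 and 0.528.

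**Figure D5:**
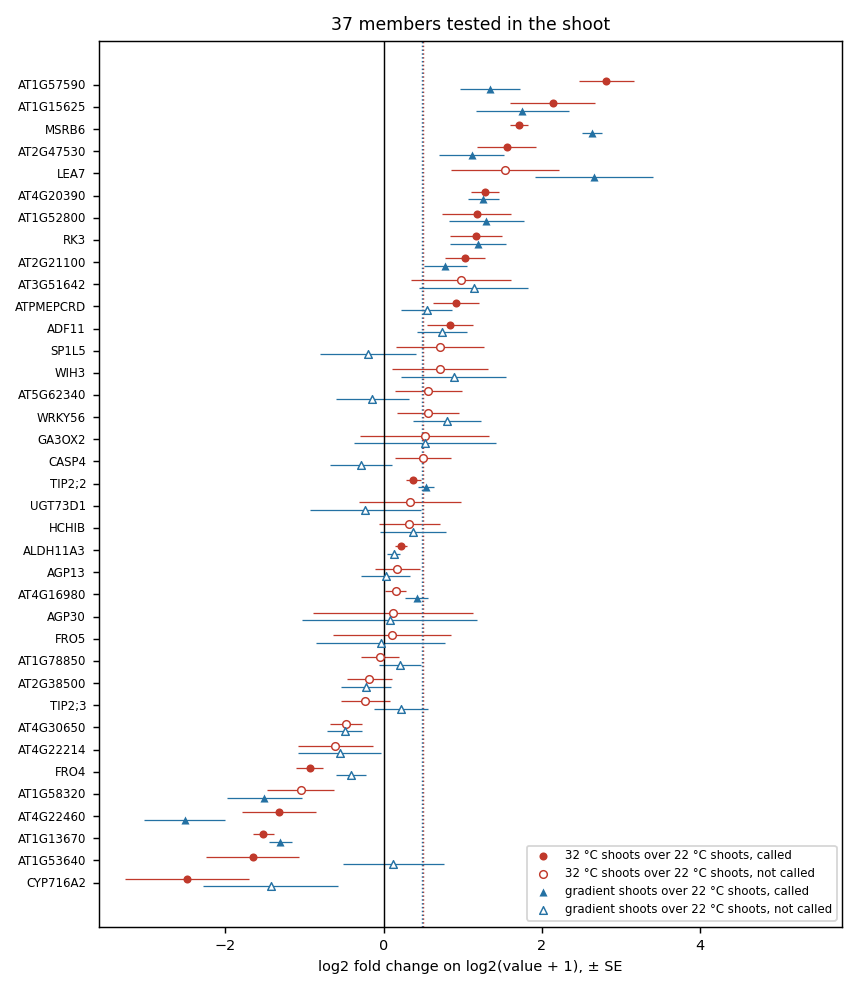
Each of the 37 members tested in the shoot has its log2 difference (± SE) for 32 °C over 22 °C shoots, as circles, and for gradient over 22 °C shoots, as triangles, filled where the limma adjusted p was below 0.05. The dotted line is the median of all 21877 genes tested, 0.49, and members lie on both sides of it, from -2.48 for CYP716A2 to 2.82 for AT1G57590 at 32 °C.

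Between the gradient and the 32 °C shoots, which were at the same shoot temperature, 1 of the 37 members rose (background 0.123%) and none fell (background 0.265%) by limma. After TMM scaling these counts were the same, against backgrounds of 0.101% and 0.315%. At an unadjusted p under 0.05, 3 members were higher and 2 lower, or 5 of 37, against 14.7% of all genes tested. The member called was MSRB6, with a difference of 0.92 ± 0.12 and an adjusted p of 0.0391. That call was lost without 32 °C shoot replicate 1 or 2 or gradient shoot replicate 1 or 2. FRO4 differed by 0.52 ± 0.17 (limma adjusted p 0.23), TIP2;2 by 0.16 ± 0.09 (adjusted p 0.47) and CASP4 by -0.78 ± 0.36 (adjusted p 0.362), and none of these passed. The root values of the same 3 genes were apart between these regimes, as given above, but the rule used that root contrast. Whether organs differed in this contrast was not tested.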

How the data were processed

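Polyadenylated RNA from roots and shoots of wild-type seedlings was sequenced, per the labels' protocols, and the series has 1 deposited table with 32833 loci in 16 columns. The deposited values were treated as a score, since the authors call them normalised counts, they are whole numbers, and the normalisation is not given in the sources used. The tools STAR 2.5.3a, HISAT2 and DESeq2 are listed in the submitters' processing notes without a role. For the build, the annotation and reads shared between copies, the sources used here give nothing. No intervals from counting were computed because depth is unknown.

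Columns were mapped to samples by title. Columns with identical values at every locus were counted as 1 library, which left 14. Locus codes were matched to RefSeq TAIR10.1, which held all 32548 nuclear loci and all 44 members, and gene names and the 250-base windows before gene starts come from it. Because the authors' build is not named, no coordinates are printed. The members were found by the rule given at the start of the results. The members and gene lists were chosen with earlier results of these data known.

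For the shoots, limma 3.58.1 (R 4.3.3) was run on log2 of each value plus 1, with 1 mean per regime over the 7 distinct shoot libraries, an intensity trend and two-sided moderated tests (4 residual degrees of freedom). Genes that reached 10 in 2 or more shoot columns were tested, 21877 in all. The same filter on root columns by coincidence also left 21877, of which 20721 were in both sets. Shoot p-values were adjusted over all genes tested by the Benjamini-Hochberg method, with calls below 0.05. Fold changes on this scale understate changes of low values. TMM scaling, an alternative, used trims of 30% by log ratio and 5% by intensity, and no count model was used. Python packages were pandas 2.3.3 for tables and matplotlib 3.10.9 for figures.

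The rule for naming genes allowed the 15 members with the highest 22 °C root mean, the 15 with the lowest 32 °C ratio, members of the lists, called members with the largest shoot changes, genes nearest each limit of the rule, neighbours in locus order, and the members with extreme gradient spread or high shoot level. Members outside it are named so that all 44 are accounted for. Alternatives were other scalings, added numbers, floors, folds and bands for the rule, other fits for the shoot, and leaving out each library. Reading each gradient library alone, and leaving out members lower in the root than in the shoot, were chosen after seeing the data. The depth, the temperatures along the gradient and the replicates' origin were not analysed here.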

Additional observations from a re-analysis of the deposited data

Results flagged for a closer look

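A difference between organs drew attention where every library of one regime lay on one side of the other regime in the root and on the opposite side in the shoot. The difference between organs was not tested in any of these cases, and all root values were used in choosing the members. Log2 shoot differences are given, and the root difference always had the opposite sign.

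Between 32 °C and 22 °C, 13 members were lower in every root library at 32 °C and higher in every shoot library. The rule fixed the root side, so the count reflects the shoot alone. It was 35.1% of the 37 members tested in the shoot, against 37.5% of the 6227 shoot-tested genes that were lower in every root library, a share near the background. Wall and membrane genes among them were AT1G57590 (2.82), AT2G47530 (1.56), AT4G20390 (1.29), AT2G21100 (1.02), ATPMEPCRD (0.92) and the aquaporin gene TIP2;2 (0.38). Enzyme genes were MSRB6 (1.71), AT1G52800 (1.18) and ALDH11A3 (0.22), and the others were AT1G15625 (2.14), RK3 (1.17), ADF11 (0.84) and WRKY56 (0.56). After TMM scaling TIP2;2 and ALDH11A3 had the other sign, and the difference of WRKY56 did not pass the limma test.

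Between the gradient and 22 °C, 8 members were opposite. Among members tested in the shoot, they were 7 of 18 (38.9%) of those lower in every gradient root library, against 40.8% of all such shoot-tested genes. Among those higher they were 1 of 3, against 5.55%. LEA7 (2.66), MSRB6 (2.63), AT1G52800 (1.298), AT4G20390 (1.26), RK3 (1.19), WRKY56 (0.80) and AT2G21100 (0.78) were higher in the gradient shoots and lower in the gradient roots, and AT1G13670 (-1.31) was lower in the shoots and higher in the roots. The root side of these rests on 1 library at 22 °C. On the shoot side, WRKY56 did not pass the limma test (adjusted p 0.137). AT1G52800, RK3 and AT2G21100 did not pass after TMM scaling. Between the gradient and 32 °C, 4 members were higher in the roots and lower in the shoots, namely AT1G57590 (-1.47), AT4G22460 (-1.19), SP1L5 (-0.91) and CASP4 (-0.78), and none of these shoot differences passed the limma test. Here too the rule fixed the root side, and 4 of 37 is 10.8%, against 19.9% of the 3263 shoot-tested genes higher in every gradient root library. Groups of 2 or 3 libraries are too small for a check of single outlying libraries.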

How the results depend on the processing

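The number of genes meeting the rule was 44 as reported and 71 after TMM scaling of the root libraries. It was 386 when a 2-fold lower level at 32 °C was enough and 9 when an 8-fold one was needed, 23 with a narrower band, 101 with a band of 2-fold, and 22 when each gradient library alone had to lie inside the band. Leaving out each warm root library gave 33 to 72 genes, the highest without 32 °C replicate 3, and 15 members were kept in all 6 of these choices. These were TIP2;3, ADF11, ATPMEPCRD, UGT73D1, SP1L5, AT1G15625, AT1G53640, AT1G58320, AT2G38500, AT2G47530, AT3G48940, AT4G01890, AT4G20390, AT4G22214 and AT4G22640. TIP2;2, CASP4, FRO4, FRO5, AGP30 and AT4G16980 were kept in 5 of the 6 and AGP13 in 4. Equal totals, other added numbers, medians and floors of 50 or 200 gave 33 to 56.

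In the shoots, the members that rose at 32 °C numbered 12, and 5 after TMM scaling, and those that fell numbered 2 to 5 without each library. In the gradient 11 rose, against 3 after TMM scaling, 5 with all libraries in 1 fit and 3 to 11 without each library, and 3 fell, against 6 after TMM scaling. TMM scaling moved all genes' median by about the size of these differences, and it reversed ALDH11A3 (-0.23) and TIP2;2 (-0.080) at 32 °C and AT4G16980 (-0.037) in the gradient. The cause was not tested. Between gradient and 32 °C shoots, 1 member rose, against 0 with no filter on low values, with all libraries in 1 fit, with the replicate block and with a fold change of at least 2, and 0 to 1 without each library, and 1 fell where identical columns were kept apart. Over all genes, 27 were higher and 58 lower, against 475 and 707 with identical columns kept apart, 3 and 9 with no filter and 0 and 0 with the block.

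Same-numbered shoot libraries correlated in their deviations at -0.18 to 0.25, and not every pair was over 0.1, so the numbers were not taken to pair samples. With the replicate block, 11 members rose and 4 fell at 32 °C, and 10 rose and 4 fell in the gradient. What limits these results is the single 22 °C root library, the unstated normalisation and the unknown depth.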
